A study of Mus musculus with 24 samples.

Results

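The comparison is between RNA of wild-type (WT) JB4/EI7HZ2 cells after 9 days and after 7 days of neural differentiation, across genes. Its members were all genes whose locus lies outside the X and Y chromosomes and whose mean FPKM (fragments scaled to transcript length and to the library's mapped fragments) over these 6 libraries was at least 1. They numbered 11892 of the 22028 genes listed outside X and Y and of 23119 genes listed in all. JB4/EI7HZ2 is a female mouse embryonic stem cell (mESC) line from a cross of a JF1 mother and a B6 father, and carries 1 drug-resistance gene on each X. The mESCs had been kept with 2i and LIF, in a medium with G418 and Zeocin that selects for the presence of both X chromosomes. For differentiation they were adapted to N2B27 with 2i and LIF, were held for 2 days with bFGF, Activin A and KSR (a serum replacement) as epiblast-like cells, and were then aggregated into embryoid bodies in GMEM with KSR, which were collected at day 7 or day 9 and dissociated with trypsin. Each day had 3 libraries, numbered as replicates 1 to 3. By the study's description these replicates came from independent experiments, and the labels do not say whether equal numbers at the 2 days mark a shared one. The same 2 days were sequenced in a SmcHD1-KO line made from JB4/EI7HZ2, and WT mESCs and neural stem cells (NSCs) gave levels before and after. Each genotype is 1 line, and the RNA is that of mixed aggregates, in which fewer cells of a type and less RNA per cell cannot be told apart.

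Neural differentiation of mESCs runs through a state like the postimplantation epiblast, in which the pluripotency factor Oct4 (Pou5f1) is still on and Nodal, FGF and Wnt signals are active. As these signals decline, cells become neurectoderm, a layer of dividing progenitors that express Sox1, Sox2, Pax6 and nestin. In the neural tube, Notch signalling between neighbours decides which progenitor keeps dividing. A cell with much Delta ligand activates Notch in the cells around it, which turn on Hes and Hey repressors and stay progenitors, whereas the Delta-rich cell turns on proneural bHLH (basic helix-loop-helix) factors, leaves the cell cycle and becomes a neuron.

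Levels of fixed markers were set beside the label of both days as early neurectoderm. Over Sox1, Sox2, Pax6, Nes, Cdh2, Zfp521 and Lhx2, the summed FPKM was 344, 333 and 307 in the day 7 libraries and 455, 398 and 391 in the day 9 libraries. It was 327, 332 and 337 in WT mESCs, where Sox2 alone had 310, 316 and 317 FPKM, so the sum cannot tell day 7 from mESCs. Sox1, Pax6, Nes, Cdh2 and Zfp521 were higher in every day 7 library than in every mESC library, Lhx2 overlapped and Sox2 was lower. Epiblast markers (Pou5f1, Fgf5, Otx2, Dnmt3b, Pou3f1, Utf1) summed to 435, 325 and 290 at day 7 and to 68.2, 70.5 and 84.1 at day 9, and in replicate 1 of day 7 the epiblast sum was above the neurectoderm sum. Pou5f1 RNA was still present in every day 7 library. Neuron markers (Tubb3, Stmn2, Elavl3, Isl1, Nhlh1) summed to 111 to 151 at day 7 and to 547 to 603 at day 9. The day 7 sum was no higher than that of WT mESCs, at 152 to 217, where Stmn2 had 118 to 156 FPKM. Mesoderm markers (T, Mixl1, Tbx6, Mesp1, Eomes) summed to 59.9 to 142 at day 7 and to 14.9 to 33.8 at day 9, most of it from T, with Mixl1 listed at 0 in all 3 day 9 libraries. Endoderm markers (Sox17, Foxa2, Gata4, Gata6, Cer1) summed to 61.0 to 152 at day 7 and to 28.2 to 52.2 at day 9. Their fall was mostly that of Cer1, from 40.9, 101 and 66.2 FPKM to 1.00, 2.16 and 1.85 FPKM. Foxa2, also a floor plate factor, had 15.1, 37.8 and 35.9 FPKM at day 7 and 25.7, 46.7 and 38.1 FPKM at day 9, most of the day 9 sum. Markers of endothelium and blood summed to 12.9 to 18.4 at day 7 and to 11.7 to 26.5 at day 9.

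Pairs of libraries of the same day correlated at 0.976 to 0.984 across genes and pairs of different days at 0.919 to 0.934 (Pearson, log2 scale), a description in which genes are not independent replicates. Replicate 1 of both days differed from replicates 2 and 3 in a set of patterning genes. It was the lowest library at both days for 13 of 15 tested Hox genes, 12 of 15 endoderm genes, 14 of 23 ventral and Sonic hedgehog genes, 9 of 16 mesoderm genes, 8 of 17 retinoic acid genes, 6 of 16 dorsal and BMP genes and 14 of 29 matrix genes, against 14.27% of all tested genes. It was the highest at both days for 5 of 8 forebrain, 8 of 18 naive pluripotency and 9 of 21 neural progenitor genes, against 11.91%. Median changes by chromosome lay between -0.04 and 0.05 on the log2 scale. Smchd1, the gene mutated in the KO line, had 26.4, 25.0 and 22.1 FPKM at day 7 and 22.3, 21.9 and 21.8 FPKM at day 9 in WT cells and was not called (-0.15, adjusted p = 0.20).

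Of 11891 genes tested (1 member, Serbp1, had a failed estimate), 5031 passed an adjusted p of 0.05 in limma on log2(FPKM + 1), which is 42.3% of the genes. The number higher at day 9 was 2629 (22.1%) and the number lower was 2402 (20.2%), and 683 rose and 351 fell by at least 1 on the log2 scale. In 6528 genes (54.9%) the 3 day 7 and the 3 day 9 libraries did not overlap. The median change over all tested genes was 0.01. Scaling every library to the same sum of FPKM moved that median to 0.14 and gave 3345 higher and 1396 lower genes (70.6% higher against 52.3%), so small changes depended on the scaling. The mean FPKM of members just inside the minimum of 1 was 1.002 for Ganc and 1.002 for Pde1c, and that of genes just outside it 0.999 for LOC100642166 and 0.998 for Ppifos. The minimum was applied to the mean of the same 6 libraries. A gene near 0 at 1 day could thus be tested only if it was high at the other, which fixed the direction of its change. Changes below are on the log2(FPKM + 1) scale with their standard error (SE), which understates the change of low genes, and each gene was tested over 3 day 7 and 3 day 9 libraries.

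**Figure D1:**
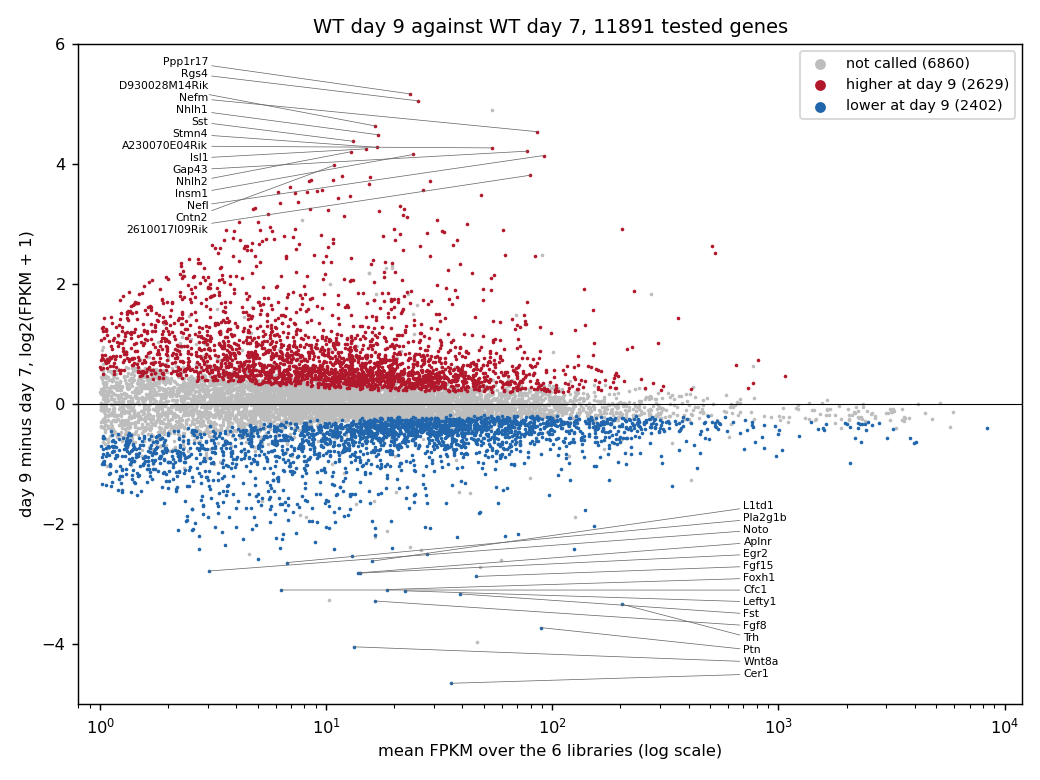
Change from WT day 7 to WT day 9 (vertical axis, log2(FPKM + 1) difference) against the mean FPKM over the 6 libraries (horizontal axis, log scale) for the 11891 tested genes, with 2629 genes called higher, 2402 called lower and the others in grey. The labels mark the 15 called genes that rose most and the 15 that fell most, with at least 5 FPKM in the higher group: neuronal genes such as Ppp1r17, Rgs4 and Nefm at the top, and Cer1, Wnt8a and Ptn at the bottom.

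Genes of the earliest steps of neuron formation rose together. Of 17 tested proneural factors, 16 were higher and 1 was lower, with a median change of 2.91, beside 42.3% of all genes called and a median of 0.01. Factors near 0 at day 7, such as Nhlh1 and Nhlh2, met the minimum only through day 9, which fixed their direction. Neurog1 and Neurog2 are bHLH proneural factors of sensory and motor lineages. Neurog2 had 0.348, 1.01 and 1.59 FPKM at day 7 and 16.4, 13.2 and 11.0 FPKM at day 9, a change of 2.91 ± 0.24 on the log2(FPKM + 1) scale (SE, limma adjusted p = 4.7e-05), and Neurog1 rose by 3.54 ± 0.20 (adjusted p = 4.3e-06). Neither gene overlapped between the days.

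The largest rises in that group were in Nhlh1, Nhlh2 and Insm1, which act just downstream of the proneural factors in newly formed neurons. Nhlh1 (mm9 chr1:173982423-173987727) had 0.537, 0.798 and 0.281 FPKM at day 7 and 37.3, 33.4 and 29.4 FPKM at day 9 and rose by 4.49 ± 0.15 (adjusted p = 7.6e-07). All 3 day 7 libraries were below 1 FPKM and all 3 day 9 libraries above 29. Nhlh2 (mm9 chr3:101814068-101819415) had 0.445, 0.515 and 0.271 FPKM at day 7 and 30.8, 24.9 and 20.1 FPKM at day 9 and rose by 4.20 ± 0.16 (adjusted p = 8.5e-07), and Insm1, a zinc-finger repressor of progenitor genes, had 1.24, 1.44 and 2.43 FPKM at day 7 and 42.8, 54.3 and 43.1 FPKM at day 9 and rose by 4.16 ± 0.17 (adjusted p = 1.0e-06). Both again lay on separate sides in every library. Neurod1, Neurod4, Myt1 and St18, which consolidate the neuronal programme, rose by 2.73, 3.56, 3.35 and 3.26. Hes6, which opposes Hes1, rose by 2.14 ± 0.15 (adjusted p = 2.0e-05) from a level already near 20 FPKM. Btg2 and Gadd45g rose by 0.89 and 2.65, markers of the last division of neural progenitors.

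The exception among these factors was Olig3, a bHLH factor of dorsal progenitors. It had 19.9, 12.1 and 6.42 FPKM at day 7 and 2.02, 2.07 and 1.53 FPKM at day 9. Its day 9 values were all near 2 FPKM while the day 7 values spread from 6 to 20, and it fell by 2.14 ± 0.34 (adjusted p = 0.0021). Atoh1, Neurod6 and Cbfa2t3 of this list were below the minimum of 1 FPKM.

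Notch pathway genes rose on the ligand, modifier and target sides. Of 23 tested members 15 were higher and 2 lower, with a median of 0.81, a share called of 73.91% beside 42.3% of all genes. Among ligands, Dll1 (mm9 chr17:15504318-15512787) had 7.34, 7.98 and 7.89 FPKM at day 7 and 36.4, 36.5 and 33.5 FPKM at day 9 and rose by 2.06 ± 0.08 (adjusted p = 9.3e-07). All 3 libraries of each day lay close together. Dll3, which blocks Notch in the cell that makes it, rose by 1.88 ± 0.15 (adjusted p = 2.9e-05), and Dll4 had 0.216, 0.312 and 0.197 FPKM at day 7 and 4.17, 4.75 and 4.45 FPKM at day 9, a rise of 2.14 ± 0.15 (adjusted p = 1.3e-05). The other type of ligand divided: Jag2 rose by 0.70 ± 0.15 (adjusted p = 0.0052) and Jag1 fell by 0.29 ± 0.10 (adjusted p = 0.041). The call of Jag1 was lost in 10 alternatives, among them the replicate block (adjusted p = 0.056) and the scaling to the same sum (-0.16, adjusted p = 0.37). Of the receptors, Notch1 rose by 1.26 ± 0.10 (adjusted p = 2.2e-05) and Notch3 by 0.43 ± 0.11 (adjusted p = 0.014). Notch2 (0.19, adjusted p = 0.24) and Notch4 (-0.21, adjusted p = 0.36) were not called.

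The Notch modifiers Lfng and Mfng, glycosyltransferases that tune which ligand a receptor answers, rose by 0.99 ± 0.11 (adjusted p = 2.0e-04) and 1.70 ± 0.11 (adjusted p = 6.9e-06). Among targets, Hes5, the main Notch effector of neural progenitors, had 23.1, 10.6 and 12.4 FPKM at day 7 and 80.5, 49.0 and 46.7 FPKM at day 9 and rose by 1.90 ± 0.34 (adjusted p = 0.0061). Replicate 1 was the highest library of its day both times, and the days did not overlap. Nrarp, a feedback inhibitor, had 17.6, 18.4 and 24.4 FPKM at day 7 and 88.9, 76.3 and 70.8 FPKM at day 9 and rose by 1.92 ± 0.13 (adjusted p = 1.7e-05), Hey1 rose by 1.51 ± 0.18 (adjusted p = 3.1e-04) and Heyl by 1.92 ± 0.27 (adjusted p = 6.5e-04). Hes1, a target expressed earlier and in more tissues, had 67.8, 65.6 and 67.8 FPKM at day 7 and 42.7, 44.4 and 56.6 FPKM at day 9. All 3 of its day 9 values were the lower ones, and it fell by 0.49 ± 0.11 (adjusted p = 0.0057). The nuclear partners Rbpj (0.23, adjusted p = 0.091) and Maml1 (0.25, adjusted p = 0.089) were not called.

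Promoter sequence for the Notch and proneural genes was taken from RefSeq on GRCm38.p6, a later build than the mm9 of the deposited table. The 250 bases before each start were searched on both strands for TGGGAA, the core that the Notch partner RBPJ binds, and for CAGCTG, an E-box that bHLH factors bind. Promoters were found for 19 of the 23 tested Notch genes and 14 of the 17 tested proneural genes. The shares were 5 of 23 Notch and 4 of 18 proneural promoters with TGGGAA, against 21.59% of all 32851 promoters, and 4 of 23 and 4 of 18 with CAGCTG, against 13% of all promoters. The 5 promoters shown are examples, 1 for each of 5 genes named above: those of Hes5 and Nhlh2 hold TGGGAA at 2 places, and those of Dll1, Dll3 and Hes6 hold CAGCTG. The other listed promoter of Dll1 holds neither. Of genes whose promoters are not shown, Lfng holds 2 matches of TGGGAA and 1 of CAGCTG. The 2 listed promoters of Rbpj overlap and hold TGGGAA at 2 places and at 1 place. They share 1 of these sites, which is counted in both promoters. Capitals mark the matched letters (TTCCCA is TGGGAA read on the other strand), and a match is a description of letters, not a bound site. Matches in Hes5 (chr4:154960673-154960922, plus strand) begin 226 and 82 bases before the start and those in Nhlh2 (chr3:102009895-102010144, plus strand) 179 and 74 bases before it. In Dll1 (chr17:15376933-15377182, minus strand), Dll3 (chr7:28301786-28302035, minus strand) and Hes6 (chr1:91414039-91414288, minus strand) the match begins 132, 7 and 171 bases before the start.
Hes5: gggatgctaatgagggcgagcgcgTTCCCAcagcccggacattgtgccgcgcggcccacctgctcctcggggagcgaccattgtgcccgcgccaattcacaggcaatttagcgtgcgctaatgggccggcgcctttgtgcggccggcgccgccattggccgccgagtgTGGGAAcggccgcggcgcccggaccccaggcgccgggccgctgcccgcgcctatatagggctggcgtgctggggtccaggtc
Nhlh2: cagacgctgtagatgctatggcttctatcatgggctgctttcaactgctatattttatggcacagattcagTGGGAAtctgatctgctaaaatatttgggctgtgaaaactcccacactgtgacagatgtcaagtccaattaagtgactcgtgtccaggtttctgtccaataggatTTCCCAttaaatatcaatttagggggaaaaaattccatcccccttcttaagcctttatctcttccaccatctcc
Dll1: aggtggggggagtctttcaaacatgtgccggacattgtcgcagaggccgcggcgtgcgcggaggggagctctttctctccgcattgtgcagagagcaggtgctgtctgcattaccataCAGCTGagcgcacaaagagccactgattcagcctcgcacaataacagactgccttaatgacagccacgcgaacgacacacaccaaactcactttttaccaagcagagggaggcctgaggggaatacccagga
Dll3: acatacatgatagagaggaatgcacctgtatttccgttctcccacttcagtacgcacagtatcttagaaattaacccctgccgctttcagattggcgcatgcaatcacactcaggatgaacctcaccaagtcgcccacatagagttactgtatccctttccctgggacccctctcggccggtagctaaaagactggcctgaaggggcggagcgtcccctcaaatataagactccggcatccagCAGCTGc
Hes6: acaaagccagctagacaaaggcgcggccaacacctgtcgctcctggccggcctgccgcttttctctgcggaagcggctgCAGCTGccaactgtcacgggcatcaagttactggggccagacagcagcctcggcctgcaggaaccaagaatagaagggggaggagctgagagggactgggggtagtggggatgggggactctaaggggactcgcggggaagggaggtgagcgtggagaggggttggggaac

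Genes of postmitotic neurons rose without exception among those tested. All 29 tested members of this list were higher at day 9, with a median of 2.80, beside 22.1% of all genes called higher. Members near 0 at day 7, such as Lhx3 and Lhx4, met the minimum only through day 9, which fixed their direction. Below the minimum were 2 further members. Tubb3, the neuronal beta-tubulin, had 55.0, 45.2 and 41.1 FPKM at day 7 and 345, 375 and 363 FPKM at day 9 and rose by 2.92 ± 0.10 (adjusted p = 7.6e-07). All 3 day 9 libraries lay far above all 3 day 7 libraries. The RNA-binding proteins Elavl3 and Elavl4 rose by 3.31 ± 0.12 (adjusted p = 8.4e-07) and 3.57 ± 0.13 (adjusted p = 7.6e-07).

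Neurofilament genes, which build the axon's intermediate filaments, gave some of the largest changes. Nefm (mm9 chr14:68737602-68749428) had 7.35, 6.49 and 4.66 FPKM at day 7 and 134, 196 and 166 FPKM at day 9 and rose by 4.54 ± 0.18 (adjusted p = 2.0e-06). Nefl had 9.45, 9.24 and 7.96 FPKM at day 7 and 151, 191 and 179.5 FPKM at day 9 and rose by 4.14 ± 0.10 (adjusted p = 2.8e-07). In both genes the day 9 values were more than 10 times the day 7 values in every library. The gene A230070E04Rik, whose locus overlaps that of Nefm, rose by 4.27 ± 0.16 (adjusted p = 1.1e-06), and the counting used by the authors may have divided reads between these entries. Gap43, a growth cone protein, had 6.22, 8.30 and 6.42 FPKM at day 7 and 118, 164 and 162 FPKM at day 9 and rose by 4.21 ± 0.15 (adjusted p = 8.5e-07), and Cntn2, an axonal adhesion molecule, rose by 3.98 ± 0.20 (adjusted p = 2.3e-06). Stmn2 was the smallest change of the list with 0.56 ± 0.12 (adjusted p = 0.0046), with 91.7, 69.8 and 66.7 FPKM at day 7 and 108, 117 and 111 FPKM at day 9. Its RNA was already abundant at day 7 and in mESCs (136 FPKM, the mean of 3 libraries). Stmn3 rose by 1.98 ± 0.10 (adjusted p = 2.3e-06) and Ina, another neuronal intermediate filament, by 2.89 ± 0.18 (adjusted p = 1.3e-05).

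**Figure D2:**
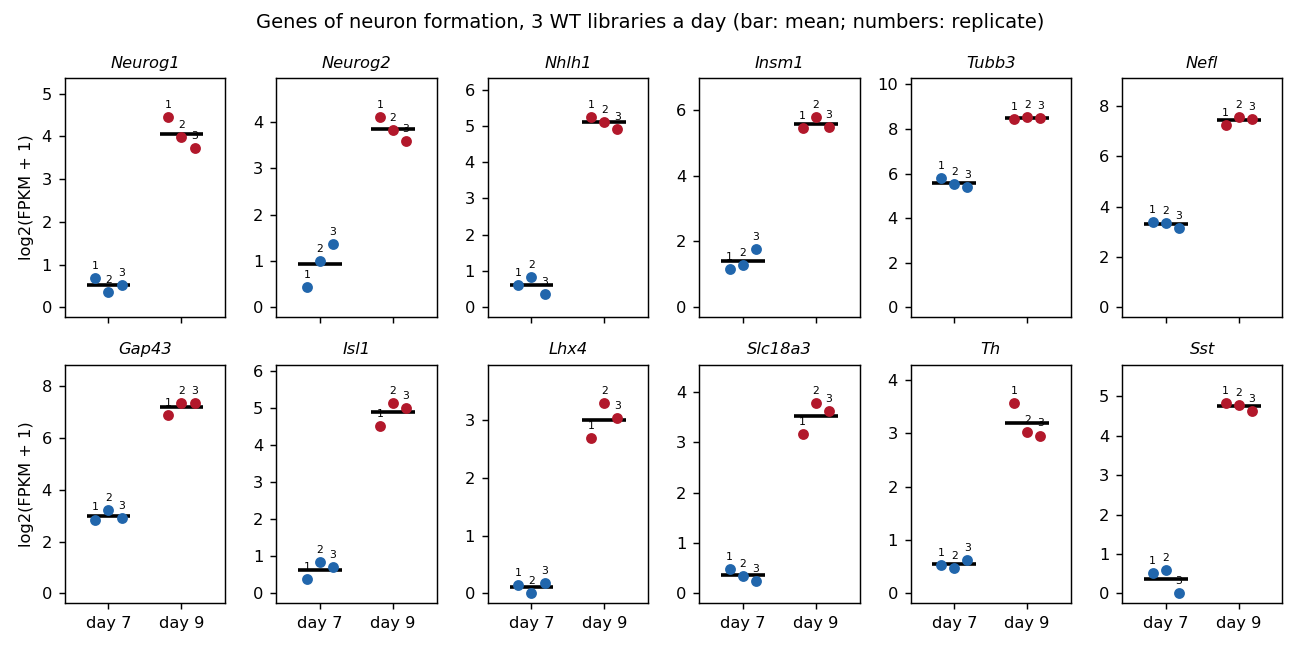
FPKM of 12 genes of neuron formation (horizontal panels, vertical axis log2(FPKM + 1)) in the 3 WT day 7 and 3 WT day 9 libraries, with points for libraries, numbered by replicate, and bars for the mean of each day. In Neurog1, Neurog2, Nhlh1, Insm1, Tubb3, Nefl, Gap43, Isl1, Lhx4, Slc18a3, Th and Sst every day 9 point lies above every day 7 point.

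Isl1, a LIM factor of motor and sensory neurons, had 0.302, 0.785 and 0.644 FPKM at day 7 and 21.8, 34.6 and 31.5 FPKM at day 9 and rose by 4.25 ± 0.19 (adjusted p = 1.4e-06). All day 7 libraries were below 1 FPKM. Its motor neuron partners followed from nearly nothing: Lhx3 had 0.0874, 0 and 0 FPKM at day 7 and 2.31, 3.58 and 3.92 FPKM at day 9, and Lhx4 had 0.106, 0 and 0.130 FPKM at day 7 and 5.40, 8.83 and 7.14 FPKM at day 9 and rose by 2.89 ± 0.19 (adjusted p = 8.3e-06). Both were listed at 0 in some day 7 libraries and at 2 to 9 FPKM in all 3 day 9 libraries. Phox2a, a factor of hindbrain visceral motor and noradrenergic neurons, rose by 2.80 ± 0.23 (adjusted p = 7.1e-05), and Tbx20, a factor of cranial motor neurons, by 3.04 ± 0.23 (adjusted p = 2.3e-05).

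Slc18a3, the vesicular acetylcholine transporter, had 0.396, 0.275 and 0.193 FPKM at day 7 and 7.98, 12.8 and 11.3 FPKM at day 9 and rose by 3.16 ± 0.18 (adjusted p = 5.4e-06), and Chat, the enzyme that makes acetylcholine, had 0, 0 and 0.0820 FPKM at day 7 and 1.97, 2.56 and 2.74 FPKM at day 9. The 2 genes share a locus, and their reads may not have been told apart. Th, the rate-limiting enzyme of catecholamine synthesis, had 0.451, 0.391 and 0.550 FPKM at day 7 and 10.9, 7.11 and 6.77 FPKM at day 9 and rose by 2.64 ± 0.19 (adjusted p = 1.4e-05). Gad1, which makes GABA, rose by 1.24 ± 0.19 (adjusted p = 9.4e-04) from below 1 FPKM. Sst, the somatostatin peptide gene, had 0.442, 0.511 and 0 FPKM at day 7 and 27.6, 26.5 and 23.8 FPKM at day 9 and rose by 4.38 ± 0.17 (adjusted p = 8.5e-07). In each of these genes the days did not overlap.

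Of 13 tested genes of synapses and ion channels, 10 were higher, none lower and 3 not called, with a median of 1.32. The share called was 76.92%, beside 42.3% of all genes. Members near 0 at day 7, such as Chat, met the minimum only through day 9, which fixed their direction. With a pseudocount of 0.1 the median was 2.60, beside 3.42 in the list of postmitotic neurons. Syt4, a vesicle protein, rose by 2.06 ± 0.17 (adjusted p = 3.1e-05) and Cacna2d1, a calcium channel subunit, by 1.79 ± 0.15 (adjusted p = 4.3e-05). Stx1a and Vamp2, of the vesicle fusion machinery, rose by 0.84 and 0.97 from 3 to 14 FPKM. Cacna1a (0.11, adjusted p = 0.60) and Grin1 (-0.38, adjusted p = 0.17) overlapped between the days, and 12 further members were below 1 FPKM.

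The 15 largest rises held 8 genes of the proneural and neuron lists and 7 others. Ppp1r17, a phosphatase inhibitor, had 0.228, 0.264 and 0.418 FPKM at day 7 and 33.4, 53.0 and 54.0 FPKM at day 9 and rose by 5.17 ± 0.18 (adjusted p = 7.7e-07). Rgs4, a regulator of G protein signalling, had 0.320, 0.814 and 0.468 FPKM at day 7 and 36.6, 59.1 and 55.8 FPKM at day 9 and rose by 5.05 ± 0.20 (adjusted p = 9.3e-07). Both were below 1 FPKM in every day 7 library. Stmn4, a neuronal stathmin, rose by 4.28 ± 0.15 (adjusted p = 7.6e-07). The unnamed genes D930028M14Rik and 2610017I09Rik rose by 4.63 ± 0.20 (adjusted p = 1.2e-06) and 3.81 ± 0.28 (adjusted p = 1.3e-04). Of these 15 genes, Gap43 and 2610017I09Rik had means of 120.0 and 137 FPKM in WT NSCs, and the means of the other 13 were below 5 FPKM there. Stmn4 was uneven in NSCs, with 0.369, 2.25 and 12.3 FPKM.

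Neural progenitor genes moved in both directions. Of 21 tested, 12 were higher, 3 lower and 6 not called, with a median of 0.64, a share called of 71.43% beside 42.3% of all genes. Vim, the intermediate filament of radial progenitors, had 123, 151 and 193 FPKM at day 7 and 1019.5, 839.5 and 808 FPKM at day 9 and rose by 2.53 ± 0.16 (adjusted p = 1.9e-05). The 3 day 9 values were more than 4 times the highest day 7 value. Fabp7, the brain lipid-binding protein of radial glia, had 101, 102 and 90.2 FPKM at day 7 and 397, 373 and 319 FPKM at day 9 and rose by 1.88 ± 0.10 (adjusted p = 2.6e-06), and Nes (nestin) had 38.0, 48.6 and 43.5 FPKM at day 7 and 107, 117 and 106 FPKM at day 9 and rose by 1.33 ± 0.10 (adjusted p = 1.7e-05). Fabp7 had a higher mean in NSCs, at 3862 FPKM, whereas the NSC libraries had 267, 97.5 and 115 FPKM of Nes, on both sides of day 9. The glutamate transporter Slc1a3 and the adhesion molecule Ncam1 rose by 1.59 ± 0.10 (adjusted p = 9.2e-06) and 1.74 ± 0.10 (adjusted p = 5.7e-06), and Sox11 and Sox9 by 1.08 ± 0.09 (adjusted p = 2.9e-05) and 0.89 ± 0.22 (adjusted p = 0.012).

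Sox2, the factor shared by mESCs and neural progenitors, had 148, 134 and 131 FPKM at day 7 and 165, 136 and 142 FPKM at day 9. Its days overlapped, and a change was not detected (0.10, adjusted p = 0.41). Sox1, the first neurectoderm factor, had 45.1, 38.0 and 33.1 FPKM at day 7 and 33.0, 24.9 and 25.3 FPKM at day 9 and fell by 0.47 ± 0.14 (adjusted p = 0.025), a call lost in 6 alternatives, among them the scaling to the same sum (-0.33, adjusted p = 0.13). The day 7 and day 9 values of Sox1 nearly touched at 33 FPKM. Pax6 had 16.1, 13.9 and 14.8 FPKM at day 7 and 54.6, 26.0 and 29.9 FPKM at day 9 and rose by 1.18 ± 0.26 (adjusted p = 0.0096), with replicate 1 the highest of the day 9 libraries. Zfp521, Cdh2 and Sox21 were not called, with changes of 0.06, -0.03 and 0.01.

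The largest fall among progenitor genes was that of Ptn, a secreted growth factor of neural stem cells. Ptn (mm9 chr6:36665663-36761361) had 200.0, 149 and 148 FPKM at day 7 and 14.8, 9.06 and 11.3 FPKM at day 9 and fell by 3.73 ± 0.18 (adjusted p = 6.3e-06). Every day 9 library was below 15 FPKM and every day 7 library above 147, whereas NSCs held 472 FPKM. Hes3, a repressor of early neural progenitors, had 9.91, 6.85 and 4.73 FPKM at day 7 and 2.95, 1.62 and 1.10 FPKM at day 9 and fell by 1.50 ± 0.29 (adjusted p = 0.0041).

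Regional genes of the neural tube changed in part. Of 8 tested forebrain genes, 3 were higher and 2 lower with a median of -0.34 (62.5% called, beside 42.3% of all genes), and 13 of the 21 listed were below the minimum. With 1 library left out, 1 to 3 were higher and 1 to 3 lower. Nr2f1, a nuclear receptor of the neural plate, had 38.6, 42.0 and 39.4 FPKM at day 7 and 107, 91.7 and 90.8 FPKM at day 9 and rose by 1.25 ± 0.08 (adjusted p = 1.2e-05). Lhx5, a LIM factor of the anterior neural plate and of interneurons, rose by 1.40 ± 0.36 (adjusted p = 0.017), and Fezf2, a forebrain factor, fell by 1.30 ± 0.21 (adjusted p = 0.0014) to below 1 FPKM. Otx2, of epiblast, forebrain and midbrain, fell by 0.79 ± 0.24 (adjusted p = 0.029), with values at day 9 of 6.19, 12.4 and 6.92 that overlapped day 7.

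Of 14 tested midbrain and hindbrain genes, 4 were higher and 4 lower, with a median of -0.21, a share called of 57.14% beside 42.3% of all genes. Egr2, the factor of hindbrain rhombomeres that also follows FGF signals, had 35.3, 21.1 and 20.2 FPKM at day 7 and 2.79, 2.79 and 2.39 FPKM at day 9 and fell by 2.82 ± 0.20 (adjusted p = 1.8e-05). Gbx2, of the midbrain-hindbrain boundary and also of the epiblast, had 38.0, 23.6 and 21.5 FPKM at day 7 and 7.12, 3.83 and 4.92 FPKM at day 9 and fell by 2.18 ± 0.25 (adjusted p = 4.4e-04). Every day 9 value of both genes was below every day 7 value. Pax2 and Lmx1b, of the same boundary, had low levels and rose by 0.95 ± 0.22 (adjusted p = 0.0085) and 1.08 ± 0.19 (adjusted p = 0.0018). En1, En2 and Wnt1 were below the minimum.

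Hox genes, which give cells their position along the body axis, were on at both days. Of 15 tested, 4 were higher, none lower and 11 not called, with a median of 0.44, and 24 of the 39 were below the minimum. The 4 were of the anterior Hox genes that mark the hindbrain. Hoxb2 had 50.7, 66.3 and 76.3 FPKM at day 7 and 85.7, 91.3 and 83.6 FPKM at day 9 and rose by 0.44 ± 0.13 (adjusted p = 0.027), Hoxa2 had 31.1, 30.6 and 31.7 FPKM at day 7 and 57.2, 36.8 and 40.6 FPKM at day 9 and rose by 0.49 ± 0.15 (adjusted p = 0.026). Hoxa3 rose by 0.79 ± 0.20 (adjusted p = 0.013) and Hoxb3 by 0.67 ± 0.20 (adjusted p = 0.031). The days of these 4 genes did not overlap, though by little. Leaving out both replicate 1 libraries, which were the lowest at both days for 13 of the 15, gave 8 higher and none lower. The replicate block gave 8 higher and 1 lower. Leaving out 1 library in turn gave 1 to 5 higher, with 1 without replicate 2 of day 7 or replicate 3 of day 9 and 2 without replicate 2 of day 9. The fit of 12 libraries gave 1, and the called share of 26.67% is below the 42.3% of all genes. Hoxb9, a trunk gene, shows the spread: it had 1.12, 4.46 and 8.22 FPKM at day 7 and 1.44, 6.60 and 6.72 FPKM at day 9. The 2 replicate 1 libraries were near 1 FPKM and the other 4 between 4 and 9, and a day difference was not called (0.14, adjusted p = 0.90).

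Retinoic acid, the posteriorising signal that acts on Hox genes, had 17 tested genes, of which 1 was higher, 5 were lower and 11 not called (median -0.49), a share called of 35.29% beside 42.3% of all genes. Without the replicate 1 libraries 2 were higher and 9 lower. Without replicate 2 of day 7 the counts were 1 and 2, without replicate 3 of day 7 they were 2 and 3, and without replicate 1 of day 7 they were 1 and 8. They were 2 and 8 with the replicate block and 3 and 4 with scaling to the same sum. Rarg, a receptor of the early embryo, had 17.2, 17.0 and 15.5 FPKM at day 7 and 1.99, 4.40 and 3.65 FPKM at day 9 and fell by 2.06 ± 0.20 (adjusted p = 1.1e-04). Of the degrading enzymes, Cyp26b1 had 14, 17.8 and 15.9 FPKM at day 7 and 56.6, 42.5 and 42.7 FPKM at day 9 and rose by 1.51 ± 0.13 (adjusted p = 4.7e-05), whereas Cyp26a1 had 11.1, 21.1 and 31.6 FPKM at day 7 and 7.27, 8.11 and 9.84 FPKM at day 9 and fell by 1.14 ± 0.35 (adjusted p = 0.038). The Cyp26b1 days were well apart, the Cyp26a1 days close to each other. Stra6, a retinol transporter, fell by 1.03 ± 0.31 (adjusted p = 0.031) and Dhrs3, a reductase that limits retinoic acid synthesis, by 0.96 ± 0.15 (adjusted p = 0.0013). Crabp1, a retinoic acid carrier, was among the more abundant RNAs at 1502, 2273 and 2791 FPKM at day 7 and 1703, 1462 and 1649 FPKM at day 9. Its days overlapped and it was not called (-0.40, adjusted p = 0.15).

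Ventral neural tube genes, which answer to Sonic hedgehog, held a few large rises. Of 23 tested, 5 were higher and 3 lower with a median of 0.37, a share called of 34.78% beside 42.3% of all genes. The counts were 8 and 4 without the replicate 1 libraries, 8 and 5 with the replicate block, and 5 and 1 without replicate 2 of day 7 or replicate 3 of day 9. Nkx2-2, the factor of the most ventral progenitors, had 0.475, 1.32 and 2.08 FPKM at day 7 and 20.9, 34.6 and 34.1 FPKM at day 9 and rose by 3.78 ± 0.30 (adjusted p = 7.3e-05). Day 7 stayed near or below 2 FPKM. Nkx6-1, a broader ventral factor, had 8.70, 24.4 and 24.8 FPKM at day 7 and 81.3, 117 and 113 FPKM at day 9 and rose by 2.48 ± 0.44 (adjusted p = 0.0098). Spon1 and Ntn1, secreted floor plate proteins that guide axons, had 2.50, 3.30 and 3.62 FPKM at day 7 and 36.9, 66.7 and 60.0 FPKM at day 9 for Spon1 and 14.7, 22.2 and 22.4 FPKM at day 7 and 74.5, 96.5 and 90.5 FPKM at day 9 for Ntn1, and rose by 3.71 ± 0.22 (adjusted p = 1.4e-05) and 2.10 ± 0.17 (adjusted p = 5.6e-05). In each of these 4 genes replicate 1 was the lowest library of both days, and the days did not overlap.

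The ligand Shh had 4.27, 21.0 and 24.2 FPKM at day 7 and 21.5, 43.0 and 31.9 FPKM at day 9. Replicate 1 at day 7 stood apart from the other five, and the change was not called (1.16, adjusted p = 0.28). Its target Gli1 (0.20, adjusted p = 0.68), its receptor Ptch1 (0.40, adjusted p = 0.18) and the floor plate factor Foxa2 (0.37, adjusted p = 0.52) were not called, whereas Hhip, a target that binds the ligand, rose by 1.13 ± 0.18 (adjusted p = 0.0010). The co-receptors Gas1 and Cdon fell by 0.76 ± 0.22 (adjusted p = 0.028) and 0.81 ± 0.19 (adjusted p = 0.0085). Olig2, of motor neuron and oligodendrocyte progenitors, had 2.20, 2.72 and 6.70 FPKM at day 7 and 3.22, 6.36 and 8.55 FPKM at day 9, which overlapped (0.56, adjusted p = 0.31). Its mean in NSCs was 338 FPKM.

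Of 16 tested dorsal and BMP genes, 1 was higher and 2 were lower with a median of -0.19, a share called of 18.75% beside 42.3% of all genes. The counts were 5 and 5 without the replicate 1 libraries, 3 and 5 with the replicate block, and 3 and 3 without replicate 1 of day 9. Id4, an inhibitor of bHLH factors, had 5.05, 2.92 and 3.37 FPKM at day 7 and 52.3, 29.0 and 27.3 FPKM at day 9 and rose by 2.92 ± 0.27 (adjusted p = 1.6e-04). It was the only Id gene called. Id1, Id2 and Id3, direct BMP targets, lay between 39 and 163 FPKM at changes of -0.30, -0.17 and 0.39. Chrd, a secreted BMP antagonist of the organiser, had 8.16, 13.2 and 9.32 FPKM at day 7 and 2.40, 2.28 and 2.79 FPKM at day 9 and fell by 1.66 ± 0.17 (adjusted p = 1.1e-04).

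**Figure D3:**
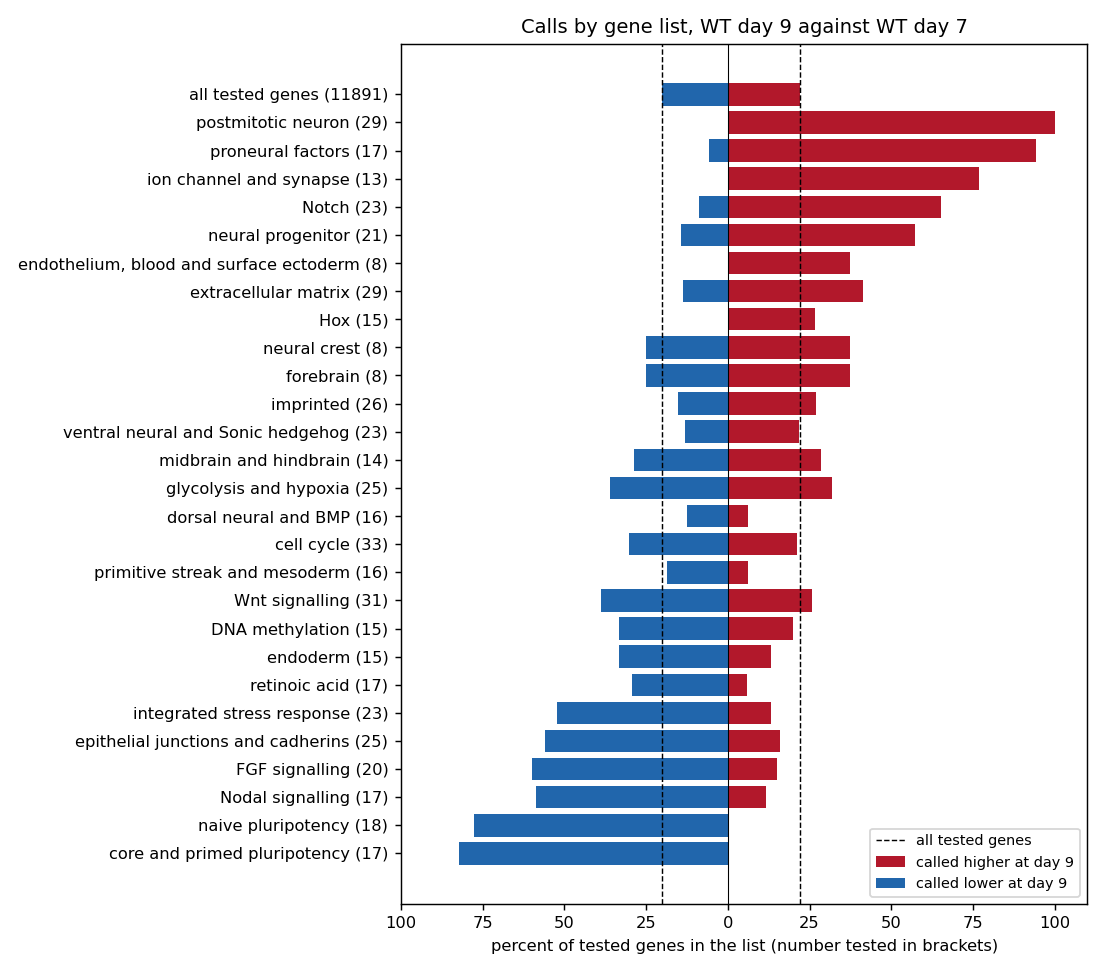
Percent of tested genes called higher (right) and lower (left) at WT day 9 in each of 27 gene lists and in all 11891 tested genes, whose shares of 22.1% and 20.2% are drawn as vertical lines; the number of tested genes stands beside each list. Postmitotic neuron, proneural, and ion channel and synapse lists extend furthest to the right, and pluripotency, Nodal and FGF lists to the left.

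On the other side were the pluripotency genes. Of 17 tested genes of core and primed pluripotency 14 were lower, none higher and 3 not called, with a median of -1.71, beside 20.2% of all genes called lower. Pou5f1 (mm9 chr17:35642977-35647722) had 264, 189 and 181 FPKM at day 7 and 36.4, 31.5 and 47.9 FPKM at day 9 and fell by 2.42 ± 0.19 (adjusted p = 6.5e-05). All 3 day 9 libraries were below 50 FPKM, and above the mean of NSCs (0.385 FPKM). Lin28a, an RNA-binding protein that blocks let-7 maturation, had 253, 259 and 226 FPKM at day 7 and 55.4, 65.4 and 58.0 FPKM at day 9 and fell by 2.03 ± 0.09 (adjusted p = 1.1e-06), and L1td1, an RNA-binding protein of pluripotent cells, had 36.9, 27.7 and 20.2 FPKM at day 7 and 3.44, 3.90 and 3.58 FPKM at day 9 and fell by 2.62 ± 0.19 (adjusted p = 2.2e-05). Lin28b did not pass the threshold (-0.22, adjusted p = 0.087). Fgf5, the classical marker of primed epiblast, had 11.0, 10.8 and 6.05 FPKM at day 7 and 0.373, 0.839 and 0.854 FPKM at day 9 and fell by 2.58 ± 0.23 (adjusted p = 5.6e-05). The day 9 values were under 1 FPKM. Dnmt3b, the DNA methyltransferase of the epiblast, had 58.3, 51.4 and 34.9 FPKM at day 7 and 7.19, 8.28 and 7.09 FPKM at day 9 and fell by 2.50 ± 0.17 (adjusted p = 2.1e-05), while Dnmt3a was at 17.5 to 20.6 FPKM in all 6 libraries (-0.05, adjusted p = 0.67).

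Naive pluripotency genes were lower in 14 of 18 tested and higher in none, with a median of -1.40, a share called of 77.78% beside 20.2% of all genes called lower. Nanog, whose entry in the table also carries the pseudogene Nanogpd, had 112, 55.4 and 59.1 FPKM at day 7 and 22.7, 15.1 and 22.8 FPKM at day 9 and fell by 1.80 ± 0.30 (adjusted p = 0.0043). Replicate 1 was the highest at day 7. Tdh, a threonine dehydrogenase of mESCs, had 56.7, 41.9 and 42.7 FPKM at day 7 and 11.7, 9.82 and 9.68 FPKM at day 9 and fell by 2.07 ± 0.13 (adjusted p = 7.6e-06). Fgf4 and Dppa4 fell by 1.95 ± 0.11 (adjusted p = 4.3e-06) and 1.86 ± 0.18 (adjusted p = 1.2e-04). Klf4 (-0.66, adjusted p = 0.16), Klf5, Tbx3 and Tet2 overlapped between the days and were not called. All 18 had a higher mean in mESCs than at day 7.

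Nodal signalling genes fell with them. Of 17 tested, 10 were lower and 2 higher, with a median of -0.70, a share called of 70.59% beside 42.3% of all genes. With 1 library left out, 8 to 10 were lower and 1 to 3 higher. Nodal, the ligand, had 18.4, 14.2 and 13.8 FPKM at day 7 and 2.44, 2.04 and 2.55 FPKM at day 9 and fell by 2.29 ± 0.14 (adjusted p = 6.3e-06). Its co-receptor Tdgf1 (Cripto) had 88.6, 59.1 and 42.4 FPKM at day 7 and 13.4, 10.8 and 12.7 FPKM at day 9 and fell by 2.22 ± 0.25 (adjusted p = 5.1e-04), and Cfc1, the related Cryptic, which is not in the list, fell by 3.10 ± 0.27 (adjusted p = 6.7e-05). Each day 9 value was below each day 7 value. The transcriptional partner Foxh1 had 39.4, 33.8 and 28.7 FPKM at day 7 and 3.07, 2.96 and 3.19 FPKM at day 9 and fell by 3.09 ± 0.12 (adjusted p = 8.7e-07). Smad2 (0.22, adjusted p = 0.11), Smad3 (0.04, adjusted p = 0.72) and Smad4 (0.12, adjusted p = 0.35), which carry the signal of several ligands, were not called, and the receptors Acvr2a and Acvr2b rose by 0.99 ± 0.15 (adjusted p = 9.8e-04) and 0.41 ± 0.13 (adjusted p = 0.033).

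Feedback inhibitors of Nodal fell too. Cer1 (mm9 chr4:82527655-82531055), a secreted antagonist of Nodal, BMP and Wnt, had 40.9, 101 and 66.2 FPKM at day 7 and 1.00, 2.16 and 1.85 FPKM at day 9 and fell by 4.65 ± 0.34 (adjusted p = 1.1e-04), the largest fall of any called gene that the naming rule admitted. Lefty1 had 50.5, 37.7 and 34.6 FPKM at day 7 and 4.15, 4.25 and 3.06 FPKM at day 9 and fell by 3.11 ± 0.16 (adjusted p = 3.1e-06), and Lefty2 had 31.0, 19.1 and 19 FPKM at day 7 and 3.26, 3.03 and 2.92 FPKM at day 9 and fell by 2.53 ± 0.18 (adjusted p = 1.7e-05). None of the 3 genes overlapped. Fst, the activin-binding protein follistatin, had 81.9, 73.0 and 58.9 FPKM at day 7 and 7.14, 6.57 and 7.27 FPKM at day 9 and fell by 3.16 ± 0.12 (adjusted p = 8.4e-07).

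**Figure D4:**
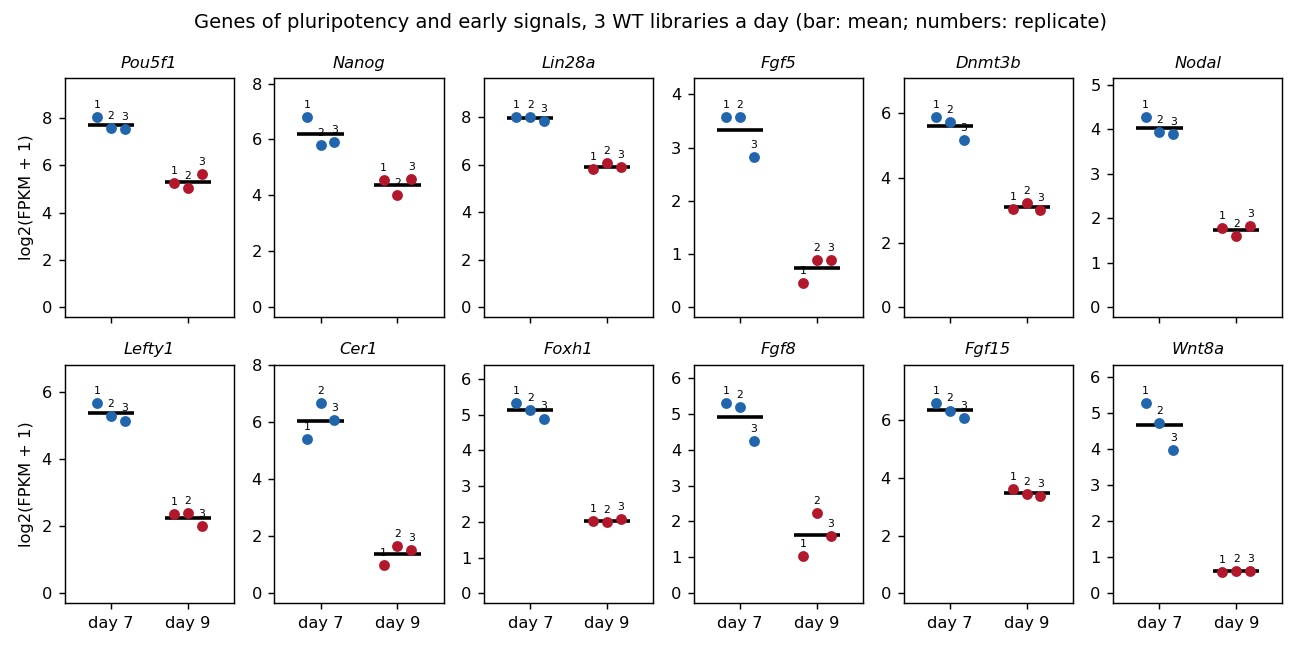
FPKM of 12 genes of pluripotency, Nodal, FGF and Wnt signalling (panels, vertical axis log2(FPKM + 1)) in the 3 WT day 7 and 3 WT day 9 libraries, with points for libraries, numbered by replicate, and bars for the mean of each day. Every day 9 point of Pou5f1, Nanog, Lin28a, Fgf5, Dnmt3b, Nodal, Lefty1, Cer1, Foxh1, Fgf8, Fgf15 and Wnt8a lies below every day 7 point.

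Of 20 tested FGF pathway genes, 12 were lower and 3 higher with a median of -0.87, a share called of 75% beside 42.3% of all genes. Fgf8, of the primitive streak and of the midbrain-hindbrain boundary, had 38.6, 35.2 and 17.9 FPKM at day 7 and 1.06, 3.74 and 2.01 FPKM at day 9 and fell by 3.28 ± 0.39 (adjusted p = 9.3e-04). Fgf15 had 97.2, 80.3 and 67.6 FPKM at day 7 and 11.3, 9.94 and 9.34 FPKM at day 9 and fell by 2.87 ± 0.13 (adjusted p = 1.8e-06), and Fgf3 fell by 1.99 ± 0.22 (adjusted p = 1.7e-04). No day 9 value of these reached a day 7 value. Of the pathway's target genes, Etv4 and Etv5, ETS factors, fell by 1.88 ± 0.19 (adjusted p = 1.1e-04) and 1.73 ± 0.17 (adjusted p = 1.3e-04), Spry2 and Il17rd, feedback inhibitors, by 1.35 ± 0.19 (adjusted p = 9.3e-04) and 1.73 ± 0.19 (adjusted p = 1.9e-04), and Dusp6, a phosphatase of ERK, by 0.75 ± 0.23 (adjusted p = 0.038). Spry1 (0.01, adjusted p = 0.97) and Dusp4 (-0.07, adjusted p = 0.74) were not called. Receptors went in different directions: Fgfr1 fell by 0.39 ± 0.10 (adjusted p = 0.016), and Fgfr3, of ventricular zone progenitors, had 5.27, 10.1 and 13.5 FPKM at day 7 and 72.2, 60.3 and 64.8 FPKM at day 9 and rose by 2.73 ± 0.29 (adjusted p = 6.1e-04).

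Wnt pathway genes were divided, with 8 higher, 12 lower and 11 not called of 31 tested (median -0.14), a share called of 64.52% beside 42.3% of all genes. Wnt8a, a ligand of the primitive streak, had 38.1, 25.2 and 14.8 FPKM at day 7 and 0.520, 0.533 and 0.542 FPKM at day 9 and fell by 4.05 ± 0.29 (adjusted p = 3.9e-05). The day 9 libraries were within 0.03 FPKM of each other. Wnt7a, a ligand of the neural tube, went the other way with 0.648, 1.16 and 1.73 FPKM at day 7 and 22.1, 16.4 and 19 FPKM at day 9 and a rise of 3.23 ± 0.19 (adjusted p = 6.3e-06). The target genes Lef1, Axin2, Sp5 and Tcf7 fell by 1.61 ± 0.20 (adjusted p = 3.6e-04), 0.91 ± 0.14 (adjusted p = 0.0012), 0.99 ± 0.22 (adjusted p = 0.0069) and 1.03 ± 0.11 (adjusted p = 1.4e-04). Dkk1, a secreted inhibitor, had 5.60, 20.9 and 19.7 FPKM at day 7 and 1.77, 3.79 and 2.72 FPKM at day 9 and fell by 1.97 ± 0.50 (adjusted p = 0.023), and Rspo3, which strengthens Wnt signals, had 5.91, 8.68 and 8.48 FPKM at day 7 and 0.859, 0.560 and 1.06 FPKM at day 9 and fell by 2.24 ± 0.18 (adjusted p = 3.0e-05). Among receptors, Fzd3 and Fzd1 rose by 1.18 ± 0.09 (adjusted p = 1.8e-05) and 1.14 ± 0.14 (adjusted p = 3.2e-04), and Fzd10 fell by 0.85 ± 0.24 (adjusted p = 0.024).

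Primitive streak, mesoderm and endoderm genes were present at day 7 with a wide spread between libraries. Of 16 streak and mesoderm genes tested, 1 was higher and 3 were lower (median -0.46), a share called of 25% beside 42.3% of all genes, and 3 and 5 without the replicate 1 libraries. With 1 library left out, 0 to 2 were higher and 2 to 4 lower, and with the replicate block the counts were 2 and 6. T (brachyury), the streak and notochord factor, had 52.1, 132 and 124 FPKM at day 7 and 12.2, 30.2 and 21.0 FPKM at day 9 and fell by 2.20 ± 0.52 (adjusted p = 0.026). Replicate 1 was the lowest at both days. Eomes and Cdx2 fell by 1.41 ± 0.18 (adjusted p = 4.1e-04) and 2.20 ± 0.17 (adjusted p = 2.3e-05), and Foxc1, of paraxial mesoderm, rose by 1.05 ± 0.36 (adjusted p = 0.048) with overlapping days. Noto, a notochord factor outside the list, had 4.88, 8.40 and 4.89 FPKM at day 7 and was listed at 0 in the 3 day 9 libraries. Tbx6 (0.10, adjusted p = 0.75), Meox1 (-0.82, adjusted p = 0.57) and Snai1 (-0.46, adjusted p = 0.18) were not called. Aplnr, the apelin receptor of early mesoderm, which is also outside the list, had 10.9, 33.9 and 30.9 FPKM at day 7 and 1.38, 3.81 and 2.34 FPKM at day 9 and fell by 2.81 ± 0.48 (adjusted p = 0.0055).

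Of 15 tested endoderm genes, 2 were higher and 5 lower, with a median of -0.62, a share called of 46.67% beside 42.3% of all genes. The counts were 4 and 5 without the replicate 1 libraries and 4 and 8 with the replicate block, and 1 was higher without replicate 2 or 3 of either day. Gsc, of the organiser and anterior endoderm, had 4.51, 7.72 and 7.70 FPKM at day 7 and 0.353, 0.722 and 0.367 FPKM at day 9 and fell by 2.35 ± 0.21 (adjusted p = 5.6e-05). Sox17 and Gata6 fell by 1.50 ± 0.36 (adjusted p = 0.012) and 1.11 ± 0.21 (adjusted p = 0.0029). All 3 were under 2 FPKM at day 9. Gata4 was at 0.268 to 2.79 FPKM in the 6 libraries (adjusted p = 0.15). Apoa1, of visceral endoderm and liver, was at 0.875, 2.91 and 4.10 FPKM at day 9 and overlapped day 7 while passing the threshold (1.23, adjusted p = 0.035), and Cxcr4, a chemokine receptor of endoderm and of migrating neurons, rose by 0.96 ± 0.11 (adjusted p = 1.8e-04).

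Other cell types of an aggregate had few tested markers. Of 14 listed neural crest genes 8 were tested, 3 were higher and 2 lower (62.5% called, beside 42.3% of all genes), with none lower without replicate 1 of day 7 or replicate 3 of day 9. Ednrb, the endothelin receptor of crest and of radial glia, had 3.58, 4.55 and 5.41 FPKM at day 7 and 40.5, 32.1 and 34.4 FPKM at day 9 and rose by 2.74 ± 0.14 (adjusted p = 2.6e-06), and Ngfr, the p75 receptor, rose by 2.36 ± 0.26 (adjusted p = 2.8e-04). Sox5 rose by 1.05 ± 0.15 (adjusted p = 7.7e-04), and Tfap2c, a gene of crest and of pluripotent cells, fell by 0.79 ± 0.22 (adjusted p = 0.022). The defining crest factors Sox10, Snai2, Tfap2a and Tfap2b were below the minimum. Of 8 tested genes of endothelium, blood and surface ectoderm, 3 were higher (37.5%, beside 42.3% of all genes called), and 2 to 4 with 1 library left out. Of these, Tal1 and Gata2, factors of blood and also of ventral interneurons, rose by 1.99 ± 0.24 (adjusted p = 2.7e-04) and 1.26 ± 0.17 (adjusted p = 5.5e-04), and the embryonic globin Hbb-bh1 rose by 1.19 ± 0.36 (adjusted p = 0.031). Hbb-bh1 had 2.58, 2.48 and 1.57 FPKM at day 7 and 2.94, 9.46 and 8.32 FPKM at day 9. Replicate 1 at day 9 was near the day 7 values and the other day 9 libraries above them.

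Epithelial genes fell in 14 of 25 tested and rose in 4, with a median of -0.69, a share called of 72% beside 42.3% of all genes. Cdh1 (E-cadherin) had 38.9, 41.7 and 38.8 FPKM at day 7 and 10.3, 17.6 and 16.7 FPKM at day 9 and fell by 1.40 ± 0.18 (adjusted p = 5.4e-04), and Epcam had 34.4, 27.1 and 31.1 FPKM at day 7 and 9.49, 11.7 and 12.3 FPKM at day 9 and fell by 1.39 ± 0.12 (adjusted p = 4.4e-05). No library of one day reached the other. Cdh2 (N-cadherin) was at 74.8 to 87.4 FPKM in all 6 libraries and not called (-0.03, adjusted p = 0.82). Esrp1, a splicing factor of epithelia, fell by 1.35 ± 0.19 (adjusted p = 5.5e-04). Among the rises, Zeb1, a repressor of E-cadherin, had 10.4, 10.3 and 10.1 FPKM at day 7 and 29.7, 30.2 and 29.3 FPKM at day 9 and rose by 1.45 ± 0.08 (adjusted p = 3.2e-06), and Cdh6 and Cdh11 rose by 1.02 ± 0.16 (adjusted p = 0.0013) and 1.67 ± 0.28 (adjusted p = 0.0027).

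Extracellular matrix genes rose in 12 of 29 tested and fell in 4 (median 0.38), a share called of 55.17% beside 42.3% of all genes, and in 19 and 3 without the replicate 1 libraries. With 1 library left out, 8 to 18 were higher, the 8 without replicate 2 of either day or replicate 3 of day 9. Col3a1, a fibrillar collagen of loose connective tissue, had 0.687, 0.378 and 0.598 FPKM at day 7 and 9.55, 28.8 and 30.5 FPKM at day 9 and rose by 3.79 ± 0.41 (adjusted p = 4.7e-04). Replicate 1 was the lowest of the day 9 libraries, and all 3 were above day 7. Lum, a proteoglycan, was listed at 0 in 2 of 3 day 7 libraries and had 0.732, 3.75 and 3.91 FPKM at day 9. Col5a2 rose by 1.43 ± 0.16 (adjusted p = 1.7e-04), and Col1a1 by 1.21 ± 0.35 (adjusted p = 0.027) with 3.96, 12.3 and 9.69 FPKM at day 9. Col4a1, of basement membranes, rose by 0.81 ± 0.25 (adjusted p = 0.037), whereas the laminin and nidogen genes Lamb1 and Nid2 fell by 1.03 ± 0.24 (adjusted p = 0.013) and 0.97 ± 0.19 (adjusted p = 0.0043).

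Cell cycle genes moved by less than 1 on the log2 scale, with few exceptions. Of 33 tested, 7 were higher and 10 lower (median -0.07), a share called of 51.52% beside 42.3% of all genes, and 12 higher and 6 lower when libraries were scaled to the same sum, so their direction was not settled for small changes. Mcm5 and Mcm7, of the replicative helicase, fell by 0.61 ± 0.07 (adjusted p = 1.9e-04) and 0.56 ± 0.06 (adjusted p = 1.9e-04). Ccne1, the cyclin of the step into S phase, had 62.6, 71.8 and 65.6 FPKM at day 7 and 34.0, 30.5 and 29.3 FPKM at day 9 and fell by 1.07 ± 0.09 (adjusted p = 2.8e-05). The days were far apart. Mki67 (0.30, adjusted p = 0.13), Top2a (0.11, adjusted p = 0.24), Pcna (-0.24, adjusted p = 0.056) and Ccnb1 (-0.10, adjusted p = 0.26), which mark dividing cells, were not called. Of the inhibitors of cyclin-dependent kinases, 3 rose: Cdkn1b (p27) had 20.1, 20.1 and 19.1 FPKM at day 7 and 35.8, 30.7 and 33.9 FPKM at day 9 and rose by 0.73 ± 0.08 (adjusted p = 1.9e-04), Cdkn2c (p18) rose by 1.94 ± 0.21 (adjusted p = 1.4e-04) and Cdkn1a (p21) by 0.51 ± 0.12 (adjusted p = 0.0088). Cdkn1c overlapped and was not called (0.93, adjusted p = 0.054), and Cdkn2a fell by 0.79 ± 0.20 (adjusted p = 0.012).

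Among genes of DNA methylation, 3 of 15 tested were higher and 5 lower (median -0.06, 5 and 2 after scaling to the same sum), a share called of 53.33% beside 42.3% of all genes. Dnmt3l, the cofactor of the de novo methyltransferases, had 36.3, 30.8 and 33.7 FPKM at day 7 and 4.91, 5.26 and 6.69 FPKM at day 9 and fell by 2.39 ± 0.12 (adjusted p = 2.3e-06), beside Dnmt3b above. Mbd2, which reads methylated DNA, and Tet3, which oxidises methylcytosine, rose by 0.88 ± 0.11 (adjusted p = 2.8e-04) and 0.62 ± 0.15 (adjusted p = 0.0099). The maintenance enzyme Dnmt1 was at 76.7 to 89.4 FPKM (-0.06, adjusted p = 0.54).

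The SmcHD1-KO line, whose 6 libraries are shared with none of the WT comparison, was tested for the same genes. There 4937 (41.5%) passed, 2652 higher (22.3%) and 2285 lower (19.2%). In those libraries, 1854 (70.5%) of the 2629 genes higher in WT were higher too and 19 were lower, while 1620 (67.4%) of the 2402 lower in WT were lower too and 17 were higher. These shared genes were 69.9% of the genes higher and 70.9% of those lower in KO cells. The test of the difference between the lines' changes called 343 genes (2.88%), of which 139 had the higher change in KO and 204 the lower. Genes had to pass the minimum in WT cells to be tested. With the minimum applied to the mean of all 12 libraries the counts were 144 and 183, and with libraries scaled to the same sum 93 and 211. With 1 line per genotype, the line and the genotype cannot be told apart.

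Among the 8 genes whose change in KO cells lay furthest above that in WT were Cer1, Rspo3 and Ptn. Cer1 in KO cells had 0.215, 3.10 and 2.29 FPKM at day 7 and 3.50, 2.85 and 2.02 FPKM at day 9. It was already low at day 7 there and was not called (0.56, adjusted p = 0.35), and its change was higher than in WT by 5.21 ± 0.62 (adjusted p = 0.0017). Rspo3 had 0.378, 0.663 and 0.662 FPKM at day 7 and 9.98, 5.68 and 4.87 FPKM at day 9 in KO cells, a rise where WT showed a fall, and differed by 4.52 ± 0.31 (adjusted p = 1.5e-05). Ptn had 157, 219 and 233 FPKM at day 7 and 196, 101 and 124 FPKM at day 9 in KO cells, all above 100 FPKM, and differed by 3.16 ± 0.36 (adjusted p = 0.0014). Noto, with 0, 0.297 and 0 FPKM at day 7 and 0.128, 0 and 0 FPKM at day 9, was below 1 FPKM in all 6 KO libraries and differed by 2.72 ± 0.28 (adjusted p = 5.2e-04), and Cfc1 and Aplnr differed by 2.99 ± 0.36 (adjusted p = 8.8e-04) and 3.06 ± 0.60 (adjusted p = 0.019). Zic1, a dorsal neural factor, was not called in WT (0.11, adjusted p = 0.75) but rose in KO cells by 3.07, a difference of 2.96 ± 0.43 (adjusted p = 0.0031), and Samd3, below 2 FPKM in all 6 KO libraries, differed by 2.81 ± 0.38 (adjusted p = 0.0015).

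Among the 8 genes whose change in KO cells lay furthest below that in WT were Isl1 and Spon1. Isl1 had 0.428, 0.537 and 0.179 FPKM at day 7 and 0.309, 2.57 and 0.920 FPKM at day 9 in KO cells. The change was lower than in WT by -3.65 ± 0.42 (adjusted p = 7.8e-04). Spon1, with 6.08, 5.33 and 4.66 FPKM at day 7 and 1.41, 8.92 and 2.22 FPKM at day 9 in KO cells, differed by -4.29 ± 0.62 (adjusted p = 0.0053), and Rgs4, Cxcl12, Gnat3, Col3a1, Hbb-bh1 and C1ql1 by -3.36, -3.53, -2.93, -3.33, -2.87 and -2.82. Of the 29 postmitotic neuron genes, 22 were higher in KO cells, with a median of 1.39 against 2.80 in WT, and 15 passed the test of the difference, beside 2.88% of all genes. The minimum was applied to WT cells alone, so genes high only there were admitted. Of 17 proneural factors, 15 were higher in KO cells, with a median of 2.35 against 2.91, and 4 passed that test, while Nhlh2 (3.98 in KO, 4.20 in WT) changed alike in sign and its difference was not called (adjusted p = 0.77). The other lists with at least 4 genes past it were the imprinted genes with 8 of 26, Wnt signalling with 5 of 31 and, with 4 genes each, ion channel and synapse (of 13), midbrain and hindbrain (of 14), endoderm (of 15), streak and mesoderm (of 16), dorsal and BMP (of 16) and ventral neural genes (of 23).

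**Figure D5:**
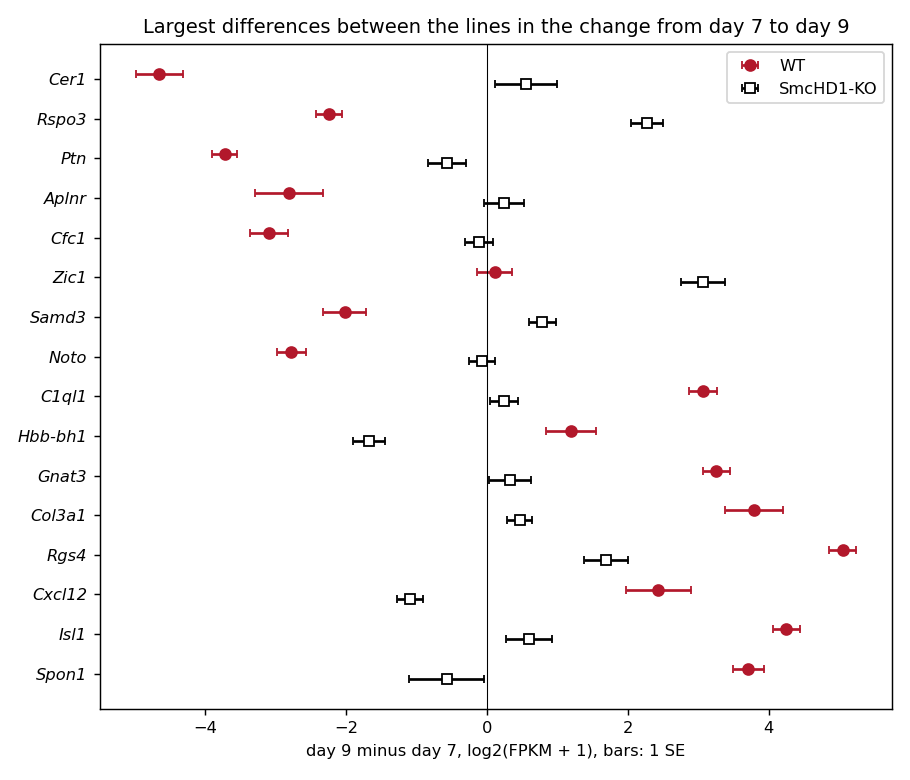
Day 9 minus day 7 difference (horizontal axis, log2(FPKM + 1) with bars of 1 standard error) of the 16 genes with the largest differences between the lines, in WT (filled circles) and SmcHD1-KO cells (open squares), 3 libraries a day in each line. Cer1, Rspo3 and Ptn lie far lower in WT than in KO, and Spon1, Isl1 and Cxcl12 far higher.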

How the data were processed

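Poly(A) RNA of the 6 WT libraries was prepared from 300 ng of total RNA with a stranded Illumina kit. Per the submitters' notes the authors trimmed reads with Trim Galore 0.6.6, aligned them to mm9 with TopHat2 2.1.1 and made the deposited FPKM values with Cufflinks and Cuffdiff. The strand setting of the counting is not given in the sources used here, so overlapping antisense genes cannot be told apart. Of 36 FPKM columns in the table, 12 belong to samples not analysed here. The deposited table holds no read totals. From the steps between low FPKM values (93.6% of 17512 values lay within 5% of a whole multiple), relative depth was 0.837 to 1.021 at day 7 and 1.003 to 1.045 at day 9.

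Values were tested as log2(FPKM + 1) with limma 3.58.1 (R 4.3.3, two-sided, eBayes with trend and robust), with Benjamini-Hochberg adjustment over 11891 genes and calls at an adjusted p under 0.05. The test of 3 against 3 libraries by permutation cannot go below 0.10 and was used for no call. The difference between the lines was tested as an interaction over 12 libraries. Both fits were run on simulated independent normal values, with far fewer changed genes than the data called and no shared replicate effect. Of 89 changes of 1 on the log2 scale the WT fit called 82.0%, and of 94 the interaction called 63.8%. Changes of 2 were called in 97.3% and 97.2%. False calls were 9 of 190 and 12 of 175. Since its setting differs, the simulation cannot vouch for the share called in the data. Alternatives varied pseudocount, filter, scaling, libraries and block.

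Members and gene lists were chosen with earlier results of these data known. Genes are named if they had the 15 largest rises or falls among called genes with at least 5 FPKM in the higher group and no overlap between days, the 8 largest differences between the lines in each direction, the 4 largest called changes in a list or a role in it that needs a value, or were markers in the study. The 10 highest levels of each day, Ganc and Pde1c were named after their values were seen. Promoter sequences are from RefSeq, GRCm38.p6. Some genes are not reported here.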

Additional observations from a re-analysis of the deposited data

Results flagged for a closer look

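The change from day 7 to day 9 differed between the lines in 343 of 11891 genes by the interaction test, and 69 of these are genes named here (limma adjusted p of 0.05 or less, the highest being 0.0497). Each value below is the change in SmcHD1-KO cells minus the change in WT cells on the log2(FPKM + 1) scale, over 3 libraries a day in each line. Each genotype was 1 line, so line and genotype cannot be told apart. Of the 69 genes, 41 had a lower change in KO cells and 28 a higher one. Many of these genes were named for the size of their change in WT cells, so this split describes the chosen genes and not the 343.

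Of the named genes in the postmitotic neuron list, the values were -3.65 for Isl1, -2.64 for Tbx20, -2.43 for Lhx4, -2.37 for Cntn2, -2.07 for Phox2a, -1.91 for Stmn3, -1.78 for Ina, -1.78 for Nefl, -1.78 for Nefm, -1.75 for Gap43, -1.73 for Elavl3, -1.72 for Lhx3, -1.42 for Tubb3 and -0.76 for Stmn2. Of the ion channel and synapse list they were -2.62 for Slc18a3, -1.56 for Chat, -1.49 for Syt4 and -1.04 for Cacna2d1, and of the proneural list -1.21 for Neurod4, -1.19 for Insm1 and -1.0 for St18. The Notch list held -1.05 for Dll4 and -1.58 for Heyl, and the neural progenitor list -1.03 for Slc1a3, -0.78 for Ncam1 and 3.16 for Ptn.

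Of the ventral neural list, the values were -4.29 for Spon1 and 1.98 for Gas1, of the matrix list -3.33 for Col3a1 and -1.68 for Col1a1, of the epithelial and cadherin list -1.58 for Cdh6 and -1.59 for Cdh11, and of the endothelium and blood list -2.87 for Hbb-bh1. Of the imprinted genes, the neighbours Dlk1, Meg3, Rian and Mirg had -1.0, -1.17, -1.04 and -1.20, while Mest and Plagl1 had 0.71 and 1.39. The entries of Meg3 and Mirg also carry microRNA genes.

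Of the streak and mesoderm list, Eomes and Cdx2 had 1.49 and 2.16. The endoderm list held 5.21 for Cer1, 2.27 for Gsc, 1.96 for Sox17 and 1.22 for Gata6, and the Nodal list, which also holds Cer1, 1.27 for Lefty1 and 1.63 for Lefty2. Of the Wnt and FGF lists the values were 4.52 for Rspo3, 2.60 for Fzd10, 2.14 for Fgf8 and 1.59 for Etv4, and of the dorsal and BMP list 2.96 for Zic1, 2.12 for Chrd and 0.92 for Id2. The midbrain and hindbrain list held 1.58 for Gbx2 and 1.50 for Egr2, beside Fgf8. The lists of retinoic acid, primed pluripotency and naive pluripotency held 1.21 for Cyp26b1, 1.39 for Fst and 1.25 for Tdh, in that order. Genes in no list had -3.53 for Cxcl12, -3.36 for Rgs4, -2.93 for Gnat3, -2.82 for C1ql1, -2.60 for Ppp1r17, -1.59 for A230070E04Rik, 2.72 for Noto, 2.81 for Samd3, 2.99 for Cfc1 and 3.06 for Aplnr.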

How the results depend on the processing

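The number of genes called between WT day 7 and WT day 9 (5031) lay within 1.5 times that value in every alternative, from 3866 without replicate 3 of day 9 to 5508 with the SmcHD1-KO libraries of both days in the fit, and no called gene was called in the other direction. With each library left out in turn it was 3866 to 4944. Without replicate 1 of both days, an alternative chosen after seeing the data, it was 4578. The labels give both days the replicate numbers 1 to 3. Over all tested genes, deviations of same-numbered WT libraries correlated at 0.13, 0.06 and 0.01, those of other pairs at -0.12 to 0.06, and the numbers were not taken as pairs. These values cannot decide pairing for the patterning lists, in which replicate 1 was often the lowest library at both days. With the replicate block 5210 genes were called in WT cells, 4986 against 4937 in KO cells and 332 against 343 for the difference between the lines. That last count was 202 to 428 with each library left out, and moved by over 1.5 times without WT day 9 replicate 3 (202), KO day 9 replicate 1 (205), WT day 9 replicate 2 (209), WT day 7 replicate 2 (212) or KO day 7 replicate 1 (221). It was 253 with a pseudocount of 0.1. Of 204 called genes named in the text, 165 kept their call in every alternative run and none changed sign. With 1 library fewer the adjusted p of 29 of them rose above 0.05, to at most 0.136. Without WT day 7 replicate 1 these were Col1a1, Col4a1, Dusp6, Foxc1, Gas1, Hbb-bh1, Hoxa2, Jag1, Lamb1, Sox1 and Tfap2c. Without WT day 7 replicate 2 they were Acvr2b, Apoa1, Col1a1, Col4a1, Cyp26a1, Dkk1, Dusp6, Foxc1, Gas1, Hbb-bh1, Hoxa2, Hoxb2, Hoxb3, Jag1, Ldha, Lhx5, Mir682, Otx2, Sox1, Stra6 and T, and without replicate 3 Acvr2b, Apoa1, Col1a1, Col4a1, Cyp26a1, Dkk1, Dusp6, Foxc1, Gas1, Hbb-bh1, Hoxa2, Lamb1, Lhx5, Otx2, Pax6, Pde1c, Stra6 and T. Without WT day 9 replicate 1 they were Acvr2b, Cyp26a1, Dkk1, Hoxb2, Jag1, Ldha, Mir682, Otx2, Pde1c and T, without replicate 2 Acvr2b, Apoa1, Col1a1, Col4a1, Cyp26a1, Foxc1, Fzd10, Hbb-bh1, Hoxb2, Hoxb3, Jag1, Ldha, Mir682, Notch3 and Sox1, and without replicate 3 Acvr2b, Apoa1, Col1a1, Col4a1, Cyp26a1, Dkk1, Dusp6, Fgfr1, Foxc1, Fzd10, Gas1, Hbb-bh1, Hoxa3, Hoxb2, Hoxb3, Jag1, Ldha, Otx2, Sox1, T and Tfap2c. Scaling to the same sum lost Dusp6, Fgfr1, Fzd10, Jag1 and Sox1, the replicate block Jag1, no filter Acvr2b, Foxc1 and Jag1, a pseudocount of 0.1 Apoa1 and Foxc1, eBayes without trend and robust Acvr2b, Foxc1 and Hoxb2, and the fit of 12 libraries Hoxa2, Hoxb2 and Hoxb3. The fit of all 24 libraries lost Acvr2b, Dusp6, Hoxa2, Hoxb2, Hoxb3, Jag1, Ldha, Mir682, Notch3 and Sox1 of these and also Asns, Bnip3, Cdkn1a, Ddit3, Hes1, Meg3, Mest, Pdk1 and Vegfa, and the fit without replicate 1 of both days lost Cdkn2a, Jag1, Mir682 and Pde1c. Conversely, 23 named genes that were not called passed in at least 1 alternative. The cause was not tested. The deposited values carry no read counts, so the precision of low values is limited by a depth that is known only relative to other libraries.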

Other observations

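Of 25 tested genes of glycolysis and hypoxia, 8 were higher and 9 lower (68% called, beside 42.3% of all genes) with a median of -0.13, whose sign turned (0.01) when libraries were scaled to the same sum. With 1 library left out, 6 to 9 were higher and 5 to 11 lower, the 5 without replicate 1 of day 9. The glucose transporter Slc2a3 had 339.7, 269 and 327 FPKM at day 7 and 171, 168 and 187 FPKM at day 9 and fell by 0.82 ± 0.10 (adjusted p = 2.4e-04). The enzymes Eno1 and Ldha fell by 0.53 ± 0.08 (adjusted p = 9.5e-04) and 0.33 ± 0.10 (adjusted p = 0.022), while the neuronal enolase Eno2 had 6.79, 6.17 and 10.1 FPKM at day 7 and 28.6, 31.6 and 29.3 FPKM at day 9 and rose by 1.85 ± 0.16 (adjusted p = 4.4e-05). Of the genes that hypoxia induces, Vegfa, Bnip3 and Pdk1 rose by 0.86 ± 0.09 (adjusted p = 1.0e-04), 0.80 ± 0.10 (adjusted p = 3.9e-04) and 0.75 ± 0.07 (adjusted p = 8.7e-05). Of 23 tested genes of the integrated stress response, 12 were lower and 3 higher (median -0.33, 65.22% called). In the fit of all 24 libraries these counts were 4 and 0, and those of the glycolysis and hypoxia list were 6 lower and 2 higher. Amino acid synthesis genes were among the lower ones: Cth fell by 1.62 ± 0.19 (adjusted p = 3.2e-04), Psph by 1.09 ± 0.08 (adjusted p = 2.2e-05) and Asns by 1.03 ± 0.07 (adjusted p = 9.6e-06). Ddit3 (CHOP) went the other way with 11.5, 11.5 and 15.0 FPKM at day 7 and 29.2, 30.9 and 27.2 FPKM at day 9 and rose by 1.15 ± 0.11 (adjusted p = 9.5e-05).

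Imprinted genes, which are expressed from 1 parental allele, were higher in 7, lower in 4 and not called in 15 of 26 tested, a share called of 42.31% beside 42.3% of all genes. The values are not split by allele. Mest had 1294, 1321 and 1163 FPKM at day 7 and 693, 699 and 676 FPKM at day 9 and fell by 0.87 ± 0.08 (adjusted p = 7.8e-05). Airn, a noncoding RNA antisense to Igf2r, from whose reads it cannot be told apart without a strand setting, had 1.85, 2.26 and 4.54 FPKM at day 7 and 6.18, 10.4 and 11.5 FPKM at day 9 and rose by 1.44 ± 0.29 (adjusted p = 0.0059), and Plagl1 had 16.7, 31.6 and 27.3 FPKM at day 7 and 63.3, 51.1 and 54.0 FPKM at day 9 and rose by 1.17 ± 0.22 (adjusted p = 0.0046). The neighbours Dlk1 and Meg3 rose by 0.81 ± 0.16 (adjusted p = 0.0038) and 0.61 ± 0.13 (adjusted p = 0.0051), while Rian (0.04, adjusted p = 0.81) and Mirg (-0.15, adjusted p = 0.34) from the same cluster were not called. Meg3 and Mirg stand in entries that also carry microRNA genes. H19 had 491, 509 and 786 FPKM at day 7 and 562, 1166 and 1137 FPKM at day 9 with overlapping days (0.64, adjusted p = 0.17).

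Among the 15 largest falls were also Trh, which encodes thyrotropin-releasing hormone, and Pla2g1b, a secreted phospholipase. Trh had 306, 429 and 379 FPKM at day 7 and 28.8, 45.8 and 33.8 FPKM at day 9 and fell by 3.34 ± 0.18 (adjusted p = 1.2e-05), and Pla2g1b had 11.0, 15.1 and 10.4 FPKM at day 7 and 0.490, 2.01 and 1.02 FPKM at day 9 and fell by 2.64 ± 0.25 (adjusted p = 1.1e-04). The highest mean levels at both days were those of the entries Mir682, at 9492 FPKM at day 7 and 7228 FPKM at day 9, and Mir692-1, at 5172 and 5146 FPKM, and of Rpl41, Eef1a1, Rpl38, Rpl23a and Rps27. Rps2, Rplp1 and Rps12 were among the first 10 at day 7, and Rps26, Tpt1 and Rpl35 at day 9. Mir682 and Mir692-1 are entries of a poly(A) library, whose values need not stand for mature microRNAs.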
